A study of Mus musculus with 12 samples.

Results

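SMC#1 and Non-SMC#1 are cultured lines from mouse tumors of small-cell lung cancer (SCLC) and form one of the pairs compared here, and the comparison covers every gene row with at least 1 FPKM in 3 or more of the 6 libraries of this pair. FPKM counts sequenced fragments for each kilobase of a transcript and is divided by the size of the library. The rule kept 12380 of the 24458 gene rows of the table, and 6 of its 12 libraries enter the comparison. SMC stands for SCLC metastasizing cells and non-SMC for their non-metastasizing counterparts. SMC#1 (3 libraries) was derived from tumor cells that flow cytometry found rich in NCAM with little or no CD44, and grows as floating spheres. Non-SMC#1 (3 libraries) was derived from cells with little NCAM and much CD44, and grows attached to the dish. Both lines carry the deletion of Rb1 and Trp53, since the tumors came from RP mice (Rb1 L/L, Trp53 L/L; L marks a floxed allele) treated with Ad-Cre, an adenovirus that delivers the Cre recombinase. The background of the mice was a mixture of S129, Balb-c and C57Bl/6, the tissue was lung and the cells were untreated. Each side of the comparison is 1 line. The labels do not say whether separate cultures gave the 3 libraries of each line, so p-values measure the spread between libraries of these lines, which may be technical.

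SCLC is a tumor of pulmonary neuroendocrine cells, which lie in the airway epithelium and store peptides and amines in dense-core vesicles. Neuroendocrine SCLC cells express neuronal transcription factors, granins and synaptic proteins together with epithelial junction genes and a member of the MYC family. SCLC tumors can also hold non-neuroendocrine cells with mesenchymal traits, in which YAP and TAZ, the transcriptional co-activators restrained by the Hippo kinases, are often expressed.

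Libraries held an estimated 28600000 to 36400000 fragments, and 10794 to 11536 rows reached 1 FPKM in each. Spearman correlations over the rows tested were 0.994 to 0.996 among SMC#1 libraries, 0.997 to 0.998 among Non-SMC#1 libraries and 0.622 to 0.628 between the lines. No library stood apart from its line. Rb1 had 3.64, 4.16 and 3.78 FPKM in SMC#1, against 0.954, 0.931 and 0.982 FPKM in Non-SMC#1, and Trp53 had 7.68, 7.14 and 7.14 FPKM in SMC#1, against 3.70, 2.94 and 3.47 FPKM in Non-SMC#1. Both transcripts were thus measured in every library, and a value per gene does not show whether the floxed exons are present. Cd44, the surface receptor for hyaluronan used in the sort, had 0.229, 0.166 and 0.217 FPKM in SMC#1 and 81.3, 78.1 and 76.0 FPKM in Non-SMC#1, in the direction of the sort. Ncam1, which encodes NCAM, had 37.6, 36.5 and 37.5 FPKM in SMC#1, against 52.6, 50.4 and 49.7 FPKM in Non-SMC#1. Its transcript was therefore lower in the line sorted as NCAM high, with a log2 difference of -0.44 (SE 0.04, limma adjusted p = 1.37e-05). The sort used the protein at the surface, and protein was not measured in these libraries.

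Of the 12380 rows, 5858 (47.3%) were higher in SMC#1 and 4919 (39.7%) were lower at a limma adjusted p under the 0.05 threshold, and 1603 were not called. With libraries this close within a line, even small differences passed the test, so the lists are described by calls of 2-fold or more on the log2(FPKM + 1) scale. At that size 2580 rows (20.8%) were higher and 2103 rows (17.0%) were lower, and the median log2 difference of all rows was 0.10. Counts of 2-fold calls within lists are to be read beside these shares. All differences below are SMC#1 minus Non-SMC#1 on this scale, which understates the change of low genes. Values of all 3 SMC#1 libraries lay above those of all 3 Non-SMC#1 libraries in 5904 rows (47.7%) and below them in 4983 rows (40.3%). Both lines averaged at least 1 FPKM in 9774 rows, whereas 1626 rows reached that level in SMC#1 alone and 980 rows in Non-SMC#1 alone. Among the genes named below as higher or lower, the largest adjusted p was 0.0289.

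The name of Non-SMC#1 as a fibroblast-like and keratin-poor line is set beside marker lists. These were chosen with earlier results of these data known, so they describe the line and do not test its name. Of 15 fibroblast markers, 2 averaged at least 1 FPKM in SMC#1 (Dcn and Thy1), whereas 10 did so in Non-SMC#1. Their summed level was 4.22 to 5.32 FPKM over the SMC#1 libraries, against 5343 to 5488 FPKM in Non-SMC#1. Non-SMC#2, the non-SMC line of the second pair, had 11 of the 15 at that level, with sums of 2112 to 2499 FPKM. Expression of most fibroblast markers was thus not particular to Non-SMC#1. In Non-SMC#1, Vim, Col1a2, Col3a1, Pcolce, Prrx1, Postn, Col1a1, Pdgfrb, Twist2 and Pdgfra were the 10 that reached 1 FPKM. The other 5, Dcn, Lum, Thy1, Fap and Dpt, were under 1 FPKM in Non-SMC#1, and Dcn was the higher of the pair in SMC#1 (2.82, 3.12 and 3.58 FPKM, against 0.331, 0.251 and 0.280 FPKM in Non-SMC#1). The line thus held collagen, vimentin and mesenchymal transcription factors, but not decorin, lumican, Thy1, Fap or dermatopontin, which mark many tissue fibroblasts. It also held Sox9, Runx2, Fabp4, Sp7 and Col2a1, markers of cartilage, bone and fat, at 31.6, 28.2, 23.5, 9.25 and 7.58 FPKM on average. The name fibroblast-like is thus a partial description. Of 12 markers of keratin-expressing epithelium, 9 reached 1 FPKM in SMC#1 and 1, Krt7, in Non-SMC#1. Their summed level was 901 to 1033 FPKM in SMC#1, against 13.7 to 16.3 FPKM in Non-SMC#1. Of 10 neuroendocrine markers, all 10 reached 1 FPKM in SMC#1 and 1, Uchl1, in Non-SMC#1. Their summed level was 2152 to 2455 FPKM in SMC#1, against 70.9 to 75.9 FPKM in Non-SMC#1. Markers of blood cells were near 0 in both lines, with summed levels of 0.994 to 1.22 FPKM in SMC#1 and 8.88 to 10.8 FPKM in Non-SMC#1 for 11 macrophage and leukocyte markers. Cd14, also expressed by other cells, held most of the Non-SMC#1 sum, and Ptprc, the pan-leukocyte gene, had at most 0.0626 FPKM in any library of the pair. As in any bulk sample, fewer cells of a kind and less RNA per cell cannot be told apart.

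**Figure D1:**
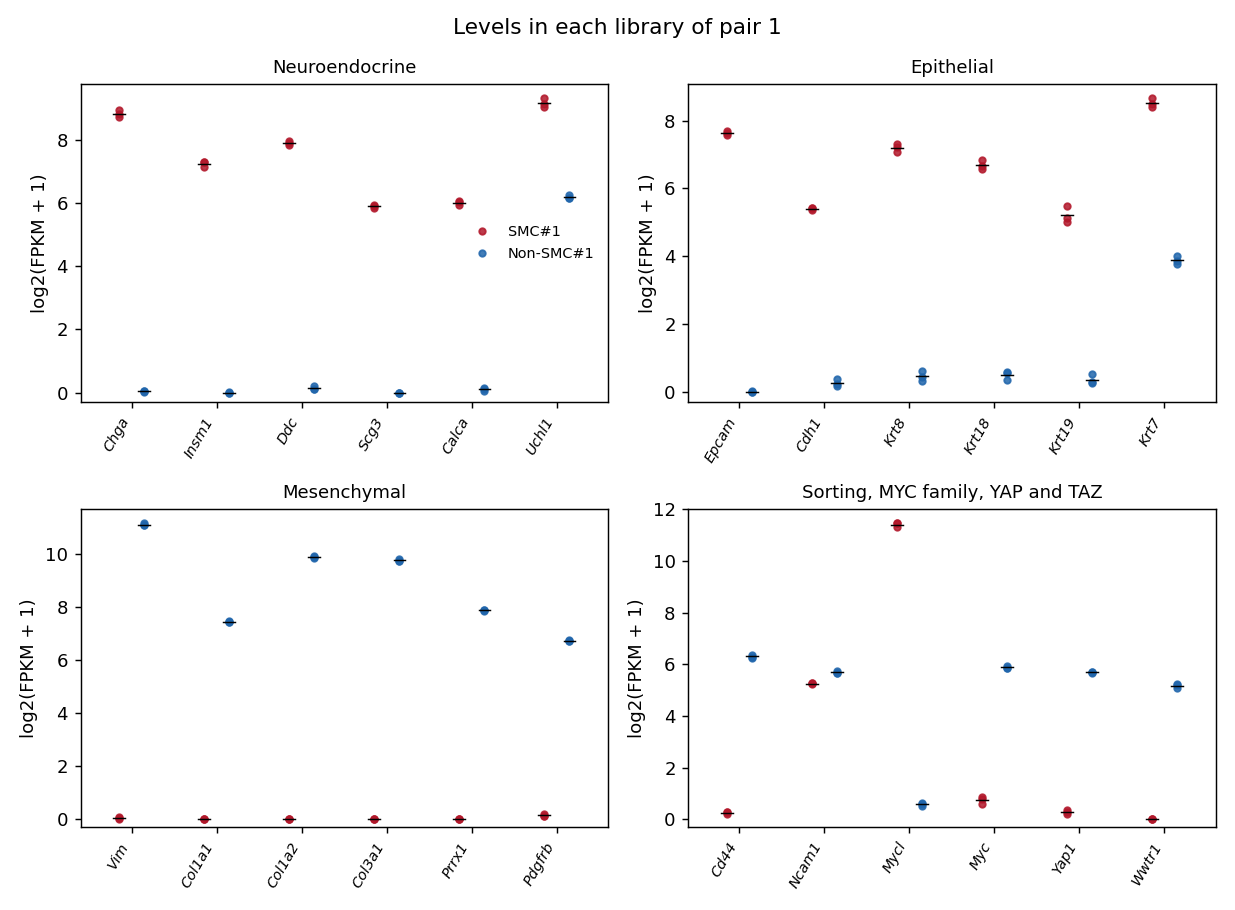
Level of 24 genes in each library of pair 1, as log2(FPKM + 1) on the vertical axis. Points are libraries (SMC#1 left of Non-SMC#1 for each gene) and short lines are means over 3 libraries. The libraries of the lines do not overlap for any of the genes shown, and Ncam1 and Cd44 are both lower in SMC#1.

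Neuroendocrine genes were expressed in SMC#1 and mostly near 0 in Non-SMC#1. Of 30 neuroendocrine and neuronal transcription factors tested, 25 were higher by 2-fold or more and 2 were lower (median log2 difference 2.97, beside 0.10 for all rows). Insm1, a zinc-finger repressor required for neuroendocrine differentiation, had 138, 156 and 155 FPKM in SMC#1, against 0.0126, 0 and 0 FPKM in Non-SMC#1. Sox1, a neural progenitor factor, had 210.0, 193 and 207 FPKM in SMC#1 and was listed at 0 in every Non-SMC#1 library. Foxa2, a factor of foregut endoderm, averaged 101 ± 7.87 FPKM in SMC#1 and 0.1504 ± 0.0221 FPKM in Non-SMC#1 (SD, n = 3 each). The groups did not overlap for any of these, and Nkx2-1, the lung lineage factor, showed the same order with 93.2, 91.6 and 87.6 FPKM in SMC#1 and 1.13, 1.31 and 1.27 FPKM in Non-SMC#1 (a log2 difference of 5.36, SE 0.05, limma adjusted p = 2.99e-12). The members that were lower are neural factors too. Sox2, a stem cell and airway factor, had 2.07, 1.82 and 2.04 FPKM in SMC#1 and 25.6, 24.2 and 25.2 FPKM in Non-SMC#1, and Nkx6-1 differed by -1.91.

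The cargo of dense-core vesicles followed the same direction. Of 22 granin, neuropeptide and prohormone processing genes tested, 19 were higher by 2-fold or more and 1 was lower (median log2 difference 4.19). Chga, the granin chromogranin A used to diagnose neuroendocrine tumors, had 447, 422 and 485 FPKM in SMC#1, against 0.0221, 0.0394 and 0.0401 FPKM in Non-SMC#1. Its log2 difference was 8.77 (SE 0.06, limma adjusted p = 6.42e-13). Pcsk1n, an inhibitor of prohormone convertase, averaged 98.1 ± 12.4 FPKM in SMC#1, against a range of 0 to 0.0164 FPKM in Non-SMC#1. Calca, which encodes calcitonin and its gene-related peptide, had 59.9, 65.3 and 64.8 FPKM in SMC#1 and 0.104, 0.0938 and 0.0479 FPKM in Non-SMC#1. Scg3 and Cadps2, which act in loading and release of these vesicles, averaged 58.5 and 57.1 FPKM in SMC#1 and were listed at 0 in all Non-SMC#1 libraries. At any size, 3 of the 22 were lower. Cpe, carboxypeptidase E, which processes prohormones, ran the other way by less. It averaged 130.4 ± 4.94 FPKM in SMC#1 and 182 ± 2.73 FPKM in Non-SMC#1 (SD, n = 3 each). Ptprn, a vesicle membrane phosphatase-like protein, was the member lower by more than 2-fold, at -2.39.

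The promoter of Chga is shown because it is the most abundant granin here and holds the E-box CAGCTG, a site of basic helix-loop-helix factors, more than once. The 250 bases before its start are given 5′ to 3′ from RefSeq (GRCm38.p6, chr12:102554691-102554940, plus strand), with matches in capitals.
Chga: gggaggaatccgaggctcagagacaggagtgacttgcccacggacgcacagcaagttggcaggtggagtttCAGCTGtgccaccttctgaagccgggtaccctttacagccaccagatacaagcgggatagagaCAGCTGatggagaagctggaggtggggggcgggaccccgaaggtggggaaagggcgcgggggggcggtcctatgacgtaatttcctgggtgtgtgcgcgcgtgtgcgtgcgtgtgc
The matches begin at -179 and -116 relative to the start. The motif CAGCTG, which reads the same on both strands, was found in 22.5% of 604 promoters of genes higher by a log2 difference of 3 or more, in 18.1% of 526 promoters of genes lower by as much, and in 15.3% of the 12555 promoters of all genes tested that matched RefSeq. These promoters span 250 bases before to 50 bases after a start, and a match is a sequence description only.

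Enzymes that make amines and the machinery of regulated release were also higher. Ddc, the decarboxylase of serotonin and dopamine synthesis, had 236, 227 and 249 FPKM in SMC#1, against 0.148, 0.0939 and 0.0765 FPKM in Non-SMC#1. Tph1, the rate-limiting enzyme of peripheral serotonin synthesis, averaged 47.3 ± 3.32 FPKM in SMC#1 and was listed at 0 in Non-SMC#1, as was Gad1, which makes GABA (26.8 ± 0.564 FPKM in SMC#1). Maoa, which degrades monoamines, had the opposite order with 0.481, 0.512 and 0.396 FPKM in SMC#1 and 31.2, 31.5 and 30.4 FPKM in Non-SMC#1, a log2 difference of -4.46. Of 43 synaptic vesicle and release genes, 31 were higher by 2-fold or more and 3 were lower (median 2.68). Snap25, a SNARE of vesicle fusion, averaged 82.5 ± 4.55 FPKM in SMC#1 and at most 0.0383 FPKM in any Non-SMC#1 library. Syp, synaptophysin, averaged 48.9 ± 3.79 FPKM in SMC#1 and 0.490 ± 0.0840 FPKM in Non-SMC#1. Of 28 voltage-gated channel genes, 22 were higher and 1 was lower by 2-fold, among them Kcnc1 (4.38) and Kcnh2 (4.38), which carry potassium currents. Of 52 neuronal cytoskeleton and axon genes, 39 were higher and 5 were lower. Stmn3, a microtubule regulator, and Elavl3, a neuronal RNA-binding protein, averaged 107 and 77.3 FPKM in SMC#1 and were listed at 0 in Non-SMC#1. Dclk1, a microtubule-linked kinase, Kif21b, a kinesin, and Dpysl3 were among the 5 that were lower, at -3.94, -2.52 and -2.10.

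The MYC family divided between the lines, and Mycl had the largest positive difference of all called rows. Mycl, which encodes L-MYC, had 2811, 2534 and 2817 FPKM in SMC#1, against 0.558, 0.441 and 0.516 FPKM in Non-SMC#1, a log2 difference of 10.82 (SE 0.06, limma adjusted p = 2.83e-13). Myc had 0.509, 0.823 and 0.751 FPKM in SMC#1 and 57.7, 60.1 and 56.5 FPKM in Non-SMC#1, a log2 difference of -5.13 (SE 0.07, limma adjusted p = 2.71e-11). Mycn had 3.52, 3.56 and 3.21 FPKM in SMC#1 and was listed at 0 in Non-SMC#1. Max, the common partner of the family, differed little (36.0 ± 1.14 FPKM in SMC#1 and 30.5 ± 0.651 FPKM in Non-SMC#1, SD, n = 3 each), while Mlxipl, a glucose-responsive relative, averaged 10.2 FPKM in SMC#1 and was listed at 0 in Non-SMC#1.

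Genes beside Mycl rose with it. In runs of 15 neighbouring rows along the genome, the highest median log2 difference was 4.24, on chromosome 4 from base 120430040 to base 122976076 (mm9, the build of the positions in the table), beside a median of 0.09 over all 12081 runs and a 99th percentile of 1.26. Within it, 9 successive rows from Ppt1 to Pabpc4 (bases 122513470 to 122976076) were all higher in SMC#1 by 2.71 to 10.82. Cap1, an actin-binding protein, had 2589, 2362 and 2650.3 FPKM in SMC#1, against 106, 107 and 107 FPKM in Non-SMC#1. Pabpc4, a poly(A)-binding protein, had 1195, 1086 and 1067 FPKM in SMC#1, against 17.8, 18.5 and 16.8 FPKM in Non-SMC#1. Ppie, a spliceosomal isomerase, had 1202, 1096 and 1239 FPKM in SMC#1, against 19.1, 21.5 and 20.9 FPKM in Non-SMC#1. These housekeeping genes were thus expressed in both lines, at levels whose ranges did not overlap. Trit1, a tRNA-modifying enzyme, averaged 369 ± 16.7 FPKM in SMC#1 and 4.89 ± 0.169 FPKM in Non-SMC#1. Ppt1, a lysosomal thioesterase, averaged 313 ± 4.25 FPKM in SMC#1 and 15.6 ± 0.287 FPKM in Non-SMC#1. Mfsd2a, a lipid transporter, averaged 59.0 ± 6.61 FPKM in SMC#1 and 0.972 ± 0.109 FPKM in Non-SMC#1. Bmp8b and Oxct2b averaged 36.9 and 5.56 FPKM in SMC#1 and were listed at 0 in Non-SMC#1, and their positions overlap, so their reads may not be separable. The rows on either side changed little: Rlf, the last before the 9, differed by 0.23, and Macf1, the first after them, by 0.20. Rows farther out also held genes higher in SMC#1, among them Rims3 (2.58), while Zmpste24, the row before Rlf, was lower (-1.04). DNA copy number was not measured in these libraries, and its part in this pattern was not tested.

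The block was then compared with the second pair of lines. In SMC#2 against Non-SMC#2, whose libraries did not enter the fit of pair 1, the log2 differences were 9.79 for Mycl, 4.56 for Trit1, 4.04 for Bmp8b, 2.49 for Oxct2b and 4.74 for Ppie. They were -0.72 for Ppt1, -0.89 for Cap1, 0.55 for Mfsd2a and -0.34 for Pabpc4. The interaction term fitted on all 12 libraries, which subtracts the pair 2 difference from that of pair 1, was 5.45 for Cap1 (SE 0.12, limma adjusted p = 1.17e-12) and 6.24 for Pabpc4 (SE 0.11, limma adjusted p = 2.55e-13). For Mycl it was 1.03 (SE 0.11, limma adjusted p = 5.56e-06). SMC#2 had 55.3, 52.4 and 51.1 FPKM of Cap1 and 1925, 1872 and 1824 FPKM of Mycl, so the SMC#2 libraries were high for Mycl and low for Cap1. Gm5088 on chromosome 14 showed the pattern of Pabpc4, with 2032, 1824 and 2079 FPKM in SMC#1 and 28.6, 27.6 and 26.3 FPKM in Non-SMC#1. RefSeq lists it as a transcribed pseudogene with the synonym Pabpc4l, so reads may be shared between these rows and its value is uncertain.

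**Figure D2:**
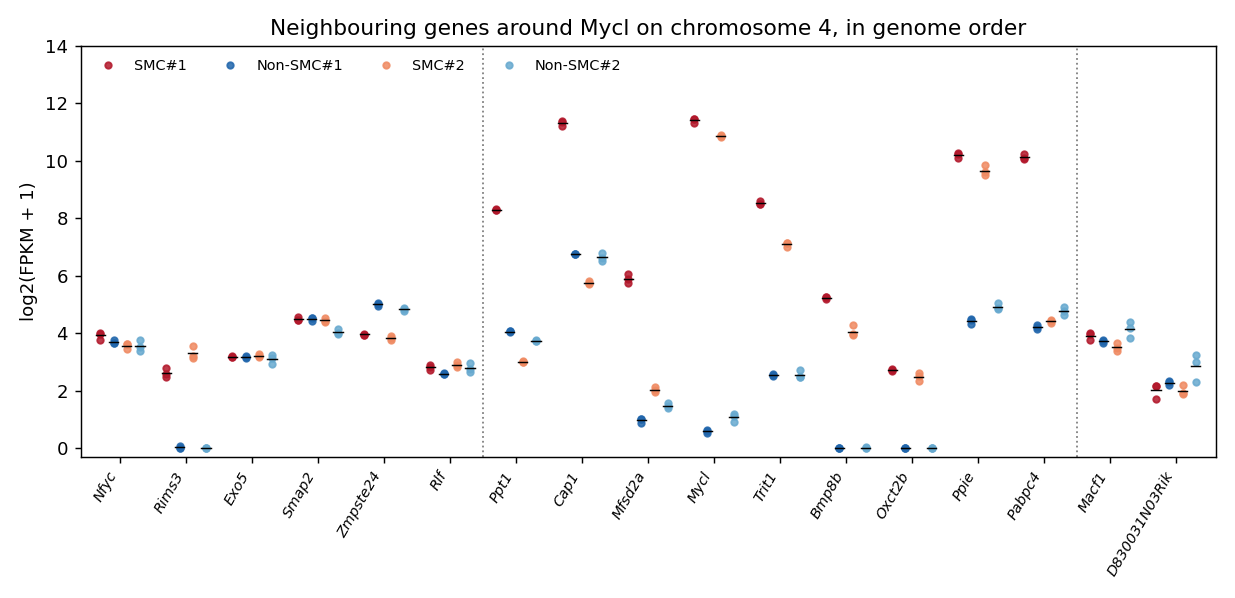
Level of 17 neighbouring genes on chromosome 4 in each library of the 4 lines, as log2(FPKM + 1), with genes in genome order from left to right. Points are libraries, short lines are means over 3 libraries, and the dotted lines bound the 9 rows from Ppt1 to Pabpc4. In SMC#1 all 9 are above Non-SMC#1, whereas in SMC#2 Ppt1, Cap1 and Pabpc4 are at or below Non-SMC#2.

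Epithelial adhesion genes divided the lines as sharply as the neuroendocrine genes did. Of 42 tested, 35 were higher in SMC#1 by 2-fold or more and 4 were lower (median log2 difference 3.71). Epcam, the epithelial cell adhesion molecule, had 198, 191 and 206 FPKM in SMC#1, against 0, 0.0176 and 0 FPKM in Non-SMC#1. Spint2, an inhibitor of membrane serine proteases, had 161, 153 and 165 FPKM in SMC#1 and 0.0363, 0.0321 and 0.0656 FPKM in Non-SMC#1. Cdh1, E-cadherin, had 41.8, 41.6 and 39.8 FPKM in SMC#1 and 0.124, 0.312 and 0.188 FPKM in Non-SMC#1 (a log2 difference of 5.12, SE 0.06, limma adjusted p = 1.35e-11). Cldn3, a tight junction claudin, and Esrp1, an epithelial splicing factor, averaged 57.6 and 44.0 FPKM in SMC#1 and were listed at 0 in Non-SMC#1. The members that were lower were Marveld1 (-1.90), Pkp2 (-1.67), Ctnnd1 (-1.28) and Pkp1 (-1.16), which include desmosomal plakophilins and p120 catenin.

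Keratins of simple epithelium were nearly absent from Non-SMC#1. Krt8 had 147, 134 and 158 FPKM in SMC#1 and 0.373, 0.529 and 0.253 FPKM in Non-SMC#1, and its partner Krt18 had 100.2, 94.2 and 114 FPKM in SMC#1 and 0.291, 0.517 and 0.469 FPKM in Non-SMC#1. Krt19 had 31.4, 34.0 and 43.4 FPKM in SMC#1 and 0.199, 0.443 and 0.241 FPKM in Non-SMC#1. Krt7, a keratin of ducts and airways, had 356, 337 and 402 FPKM in SMC#1 and 12.6, 13.5 and 15.03 FPKM in Non-SMC#1, so this gene was reduced but not absent. Of 16 keratins listed, 7 were tested, 5 were higher by 2-fold or more and none was lower at any size. Krt80, at 5.37 ± 1.12 FPKM in SMC#1 and 5.51 ± 0.258 FPKM in Non-SMC#1, was not called (log2 difference -0.05, limma adjusted p = 0.729). The basal keratins Krt5 and Krt14 were below 1 FPKM in every library of the pair.

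Among 12 lung epithelial lineage genes, 8 (66.7%) were higher by 2-fold or more and 3 (25%) were lower, beside 20.8% and 17.0% of all rows. Sftpc, surfactant protein C of alveolar type 2 cells, had 42.8, 41.8 and 51.3 FPKM in SMC#1, against 0.0762, 0 and 0 FPKM in Non-SMC#1. Of the 9 type 2 markers fixed, 2 reached 1 FPKM in SMC#1, Sftpc and the lipid transporter Abca3 (1.11), while Sftpa1, Sftpb, Sftpd, Napsa and Lamp3 were below it. Hopx, a cofactor found in alveolar type 1 cells, averaged 21.9 ± 1.82 FPKM in SMC#1 and 6.03 ± 0.127 FPKM in Non-SMC#1. Cav1, a caveolar coat protein, and Aqp5, a water channel, are also type 1 genes but were lower, at -6.89 and -3.16. Foxa1 and Id2, epithelial factors of the lung buds, were higher at 2.97 and 3.31.

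Genes of the extracellular matrix had the opposite pattern. Of 42 collagen and matrix glycoprotein genes tested, 40 were lower in SMC#1 by 2-fold or more and 1 was higher (median log2 difference -5.06). Bgn, the proteoglycan biglycan, was listed at 0 in all SMC#1 libraries and had 1128, 1097 and 1087 FPKM in Non-SMC#1. Col1a2 and Col3a1, chains of fibrillar collagens, were listed at 0 in SMC#1 as well and had 956, 990.1 and 933 FPKM and 859, 871 and 902 FPKM in Non-SMC#1. Col1a1 had 0.0145, 0 and 0.00609 FPKM in SMC#1 and 174, 177 and 173 FPKM in Non-SMC#1, a log2 difference of -7.45 (SE 0.04, limma adjusted p = 2.79e-13). Spp1, osteopontin, Sparc, a collagen-binding protein, and Fn1, fibronectin, reached at most 0.0316, 0.312 and 0.679 FPKM in SMC#1, against 778 ± 40.3, 544 ± 8.89 and 644 ± 11.4 FPKM in Non-SMC#1 (SD, n = 3). Eln, elastin, was the member that was higher in SMC#1, at 3.52 ± 0.0947 FPKM, against a range of 0 to 0.0264 FPKM in Non-SMC#1.

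Enzymes that build and cut this matrix followed. All 22 collagen processing and cross-linking genes tested were lower in SMC#1, 18 of them by 2-fold or more. Pcolce, an enhancer of procollagen cleavage, had 0, 0 and 0.0447 FPKM in SMC#1 and 541, 544 and 547 FPKM in Non-SMC#1, and Lox, lysyl oxidase, had 0.0612, 0.0814 and 0.0321 FPKM in SMC#1 and 446, 436 and 436 FPKM in Non-SMC#1. Ppib, a chaperone of all secretory cells, differed least, by -0.50. Of 25 extracellular proteases and inhibitors, 21 were lower and 2 were higher by 2-fold. Timp1, a metalloproteinase inhibitor, had 0.412, 0.383 and 0.347 FPKM in SMC#1 and 617, 635 and 596 FPKM in Non-SMC#1, and Mmp14, a membrane metalloproteinase, differed by -6.89. Mmp15, another membrane metalloproteinase, was higher in SMC#1, at 10.5 ± 0.0458 FPKM, against 0.277 ± 0.0365 FPKM in Non-SMC#1.

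Mesenchymal identity genes fell as a group. Of 39 tested, 36 were lower in SMC#1 by 2-fold or more and 1, Dcn, was higher (median log2 difference -4.25). Vim, the intermediate filament vimentin, had 0.0639, 0 and 0.0358 FPKM in SMC#1, against 2202, 2313 and 2195 FPKM in Non-SMC#1, the lowest difference of all called rows named (-11.08, SE 0.05, limma adjusted p = 1.47e-13). Prrx1, a homeobox factor of limb and craniofacial mesenchyme, had 0.00843, 0.00897 and 0 FPKM in SMC#1 and 240.1, 233 and 239 FPKM in Non-SMC#1. The receptor genes Pdgfrb and Pdgfra averaged 0.106 ± 0.0350 and 0.261 ± 0.0108 FPKM in SMC#1, against 105 ± 1.64 and 20.5 ± 0.962 FPKM in Non-SMC#1. Factors of epithelial-mesenchymal transition differed in size: Twist1 by -5.18, Twist2 by -4.64, Zeb2 by -2.90, Snai2 by -2.61 and Zeb1 by -1.72. Zeb1 and Snai2 were measured in SMC#1 too, at 4.70 ± 0.310 and 6.51 ± 0.1997 FPKM. Cdh2, N-cadherin, differed little, with 23.8 ± 0.579 FPKM in SMC#1 and 33.9 ± 0.285 FPKM in Non-SMC#1.

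Contractile and adhesion genes were mostly lower in SMC#1. That line grows without attachment, and growth mode cannot be told apart from other differences between the lines. Of 24 smooth muscle and contractile genes, 20 were lower by 2-fold or more and 1 was higher. Acta2, smooth muscle actin, was listed at 0 in SMC#1 and averaged 38.7 ± 2.08 FPKM in Non-SMC#1, and Cnn2, a calponin, differed by -7.71. Myh11, the smooth muscle myosin, was below 1 FPKM in every library of the pair. Of 36 integrin and focal adhesion genes, 26 were lower and 3 were higher by 2-fold. Itga5, the fibronectin receptor chain, was listed at 0 in SMC#1 and averaged 109 ± 4.25 FPKM in Non-SMC#1, while Itgb1, its partner, was measured in both lines at 77.0 ± 0.700 FPKM in SMC#1 and 333 ± 4.41 FPKM in Non-SMC#1. The laminin-binding chain Itga6 and the epithelial kindlin Fermt1 were higher in SMC#1, at 3.70 and 3.34. Of 20 S100 proteins, annexins and galectins, 18 were lower by 2-fold or more and none was called higher. S100a6, a calcium-binding protein, had 0.514, 0.282 and 0.0729 FPKM in SMC#1 and 1402, 1478 and 1465 FPKM in Non-SMC#1, and Lgals1, galectin-1, had 3.65, 3.83 and 4.17 FPKM in SMC#1 and 2462, 2690.4 and 2486 FPKM in Non-SMC#1. Anxa2 had 0.216, 0.0994 and 0.156 FPKM in SMC#1 and 711, 728 and 701 FPKM in Non-SMC#1.

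**Figure D3:**
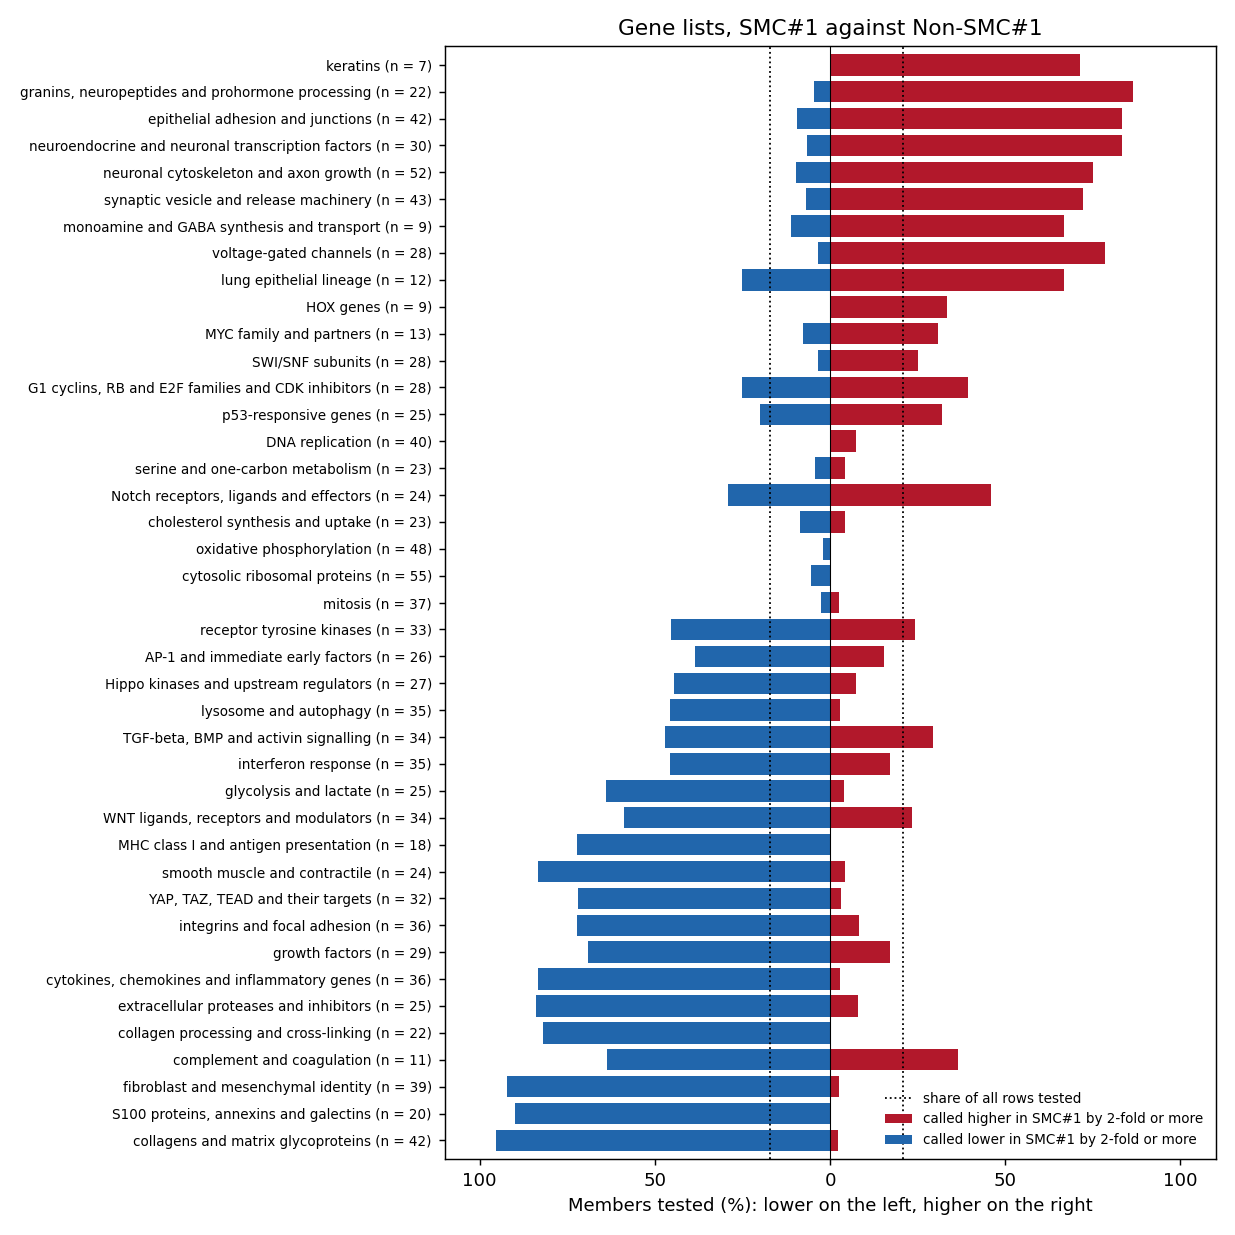
Share of the tested members of 41 gene lists called higher (right, red) or lower (left, blue) in SMC#1 by 2-fold or more, in percent, with lists ordered by their median log2 difference. Dotted lines mark the shares of all rows tested, 20.8% higher and 17.0% lower. Neuroendocrine, neuronal and epithelial lists lie at the top, matrix and mesenchymal lists at the bottom, and the DNA replication, mitosis, ribosomal protein and oxidative phosphorylation lists stay within the dotted lines.

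Most genes of YAP, TAZ, the TEAD factors and their targets were lower in SMC#1. Of all 32 genes of the list, 23 were lower by 2-fold or more and 1, Nuak2, was higher at 1.03. The study singled out Taz, Yap and Tead2 on such cells, and the list was chosen with earlier results of these data known. The direction of its members is therefore no independent evidence. Wwtr1, which encodes TAZ, had 0, 0.00777 and 0.0122 FPKM in SMC#1, against 35.4, 33.4 and 36.7 FPKM in Non-SMC#1 (a log2 difference of -5.17, SE 0.05, limma adjusted p = 4.29e-12). Yap1 had 0.142, 0.294 and 0.218 FPKM in SMC#1, against 51.2, 51.0 and 49.9 FPKM in Non-SMC#1 (a log2 difference of -5.41, SE 0.06, limma adjusted p = 5.05e-12). Among the TEAD factors that bring these co-activators to DNA, Tead2 had 0.358, 0.134 and 0.300 FPKM in SMC#1 and 52.97, 54.8 and 51.0 FPKM in Non-SMC#1. Tead1 was measured in both lines, at 13.01 ± 1.30 FPKM in SMC#1 and 24.7 ± 0.886 FPKM in Non-SMC#1, and Tead3 and Tead4 differed by -1.44 and -1.48. Cyr61 (now Ccn1), a matricellular target, had 0.188, 0.382 and 0.237 FPKM in SMC#1 and 268, 278 and 258 FPKM in Non-SMC#1. Ankrd1, a muscle ankyrin repeat protein, had 0.0447, 0 and 0 FPKM in SMC#1 and 90.7, 87.7 and 82.3 FPKM in Non-SMC#1, and Axl, a receptor kinase, differed by -6.34.

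The starts of Cyr61 and Ankrd1 are shown because both are standard readouts of YAP and TAZ and hold the TEAD site GGAATG. The 250 bases before each start are given 5′ to 3′ on the gene's strand from RefSeq (GRCm38.p6), with GGAATG or its complement in capitals.
Cyr61 (chr3:145649986-145650235, minus strand): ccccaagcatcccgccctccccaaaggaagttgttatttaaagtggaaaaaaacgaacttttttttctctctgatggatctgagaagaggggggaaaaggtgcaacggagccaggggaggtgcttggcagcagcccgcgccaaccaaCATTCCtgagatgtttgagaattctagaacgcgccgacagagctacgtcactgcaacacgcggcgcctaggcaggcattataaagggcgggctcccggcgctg
Ankrd1 (chr19:36119845-36120094, minus strand): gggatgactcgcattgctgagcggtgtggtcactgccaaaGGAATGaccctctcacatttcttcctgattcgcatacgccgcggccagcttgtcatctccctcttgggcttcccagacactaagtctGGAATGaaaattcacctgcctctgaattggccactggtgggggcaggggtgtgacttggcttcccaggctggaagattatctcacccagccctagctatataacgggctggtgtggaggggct
The match in Cyr61 begins at -103 and those in Ankrd1 at -210 and -123 relative to the start. GGAATG, on either strand, was found in 13.1% of the promoters of genes higher by a log2 difference of 3 or more, in 17.5% of those of genes lower by as much and in 1511 of all 12555. The AP-1 site TGANTCA, searched on both strands, was found in 5.46% of promoters of the higher genes, 8.75% of promoters of the lower genes and 4.78% of all. Such a match does not show that a factor binds there.

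Of 27 Hippo kinases and upstream regulators, 12 (44.4%) were lower by 2-fold or more and 2 (7.41%) were higher, beside 17.0% and 20.8% of all rows. Lats2, a kinase that inhibits YAP and TAZ and is itself their target, differed by -3.94, whereas Lats1 was higher at 0.60. Ajuba, a scaffold that restrains the LATS kinases, differed by -5.15, and Wwc2 by -5.28, while its relative Wwc1 was higher at 1.65. The kinase gene Taok2 was higher too, at 1.80. Nf2, the upstream tumor suppressor, was at 29.6 ± 0.875 FPKM in SMC#1 and 23.3 ± 0.347 FPKM in Non-SMC#1. Among 26 AP-1 and immediate early genes, 10 (38.5%) were lower and 4 (15.4%) were higher by 2-fold, beside 17.0% and 20.8% of all rows. Fosl1, an AP-1 subunit, was estimated at practically 0 in SMC#1 and averaged 39.1 ± 1.03 FPKM in Non-SMC#1, and Ier3, an early stress gene, differed by -5.65, while Batf3 and the phosphatase gene Dusp4 were higher at 1.81 and 1.29.

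Growth factor and receptor genes were split between the lines. Of 33 receptor tyrosine kinase genes, 15 (45.5%) were lower and 8 (24.2%) higher by 2-fold, beside 17.0% and 20.8% of all rows. Axl, Pdgfrb and Pdgfra led those that were lower, and Egfr (-3.77), Erbb2 (-3.17) and Met (-3.22) were lower as well. Kit, the receptor of stem cell factor, averaged 14.3 ± 0.391 FPKM in SMC#1 and was listed at 0 in Non-SMC#1, and Ret, another receptor kinase, differed by 2.44. Kitl, the ligand of Kit, was higher in SMC#1 too, at 6.58 ± 0.536 FPKM, against 2.10 ± 0.296 FPKM in Non-SMC#1. Of 29 growth factors, 20 (69%) were lower and 5 (17.2%) were higher by 2-fold, beside the same shares of all rows. Csf1, a macrophage growth factor, had 0.416, 0.523 and 0.394 FPKM in SMC#1 and 152, 151 and 142 FPKM in Non-SMC#1, Fgf7 differed by -5.84 and Vegfa by -2.44. Tgfa and Fgf21, a ligand of EGFR and an endocrine factor, were higher in SMC#1 at 4.29 and 4.59. Of 34 genes of TGF-beta, BMP and activin signalling, 16 (47.1%) were lower and 10 (29.4%) were higher by 2-fold. Inhba, the activin A subunit, had 0, 0 and 0.0225 FPKM in SMC#1 and 155, 147 and 150.4 FPKM in Non-SMC#1, and Tgfbr2, a TGF-beta receptor, was listed at 0 in SMC#1 and averaged 24.7 ± 0.0553 FPKM in Non-SMC#1. Id1, an inhibitor of helix-loop-helix factors induced by BMP, was higher in SMC#1, at 947 ± 89.6 FPKM, against 65.1 ± 3.49 FPKM in Non-SMC#1. Smad4 differed by 0.18, and Smad1 and Smad2 were not called.

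WNT and Notch components were split. Of 34 WNT genes, 20 (58.8%) were lower and 8 (23.5%) were higher by 2-fold, beside 17.0% and 20.8% of all rows. Sfrp2 and Dkk3, secreted WNT modulators, reached at most 0.0321 and 0.0224 FPKM in SMC#1 and averaged 348 ± 7.81 and 95.2 ± 2.27 FPKM in Non-SMC#1, and the receptor gene Fzd1 differed by -6.36. Nkd1 and Axin2, feedback genes of the pathway, were higher in SMC#1, at 4.43 and 2.99. Of 24 Notch genes, 11 (45.8%) were higher and 7 (29.2%) were lower by 2-fold. The receptors were lower in SMC#1: Notch2 had 1.99, 2.18 and 1.82 FPKM in SMC#1 and 20.7, 19.7 and 19.6 FPKM in Non-SMC#1, and Notch1 differed by -2.34. So were the ligand Jag1 (-3.41) and Rest, a repressor of neuronal genes, which had 0.282, 0.240 and 0.128 FPKM in SMC#1 and 8.82, 7.63 and 8.51 FPKM in Non-SMC#1. Dner and Mfng, a neuronal Notch ligand and a Notch glycosyltransferase, were higher at 6.31 and 5.83, as were the ligands Jag2 (4.83), Dll1 (3.09) and Dll4 (2.39). Hes6, a neuronal antagonist of Hes1, had 389, 352 and 418 FPKM in SMC#1 and 16.9, 19.4 and 17.3 FPKM in Non-SMC#1, while Hes1 differed by -1.92.

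Immune signalling genes were mostly expressed in Non-SMC#1. Of 36 cytokine, chemokine and inflammatory genes, 30 were lower in SMC#1 by 2-fold or more and 1, Cxcl14, was higher. Cxcl12, a chemokine of stromal cells, was listed at 0 in SMC#1 and averaged 178 ± 3.62 FPKM in Non-SMC#1. Il1rl1, the receptor of the alarmin IL-33, was listed at 0 in SMC#1 and had 108, 104 and 106 FPKM in Non-SMC#1. Of 18 MHC class I and antigen presentation genes, 13 were lower by 2-fold or more and none was called higher. B2m, the light chain of MHC class I, had 21.6, 19.1 and 23.3 FPKM in SMC#1, against 352, 338 and 324 FPKM in Non-SMC#1. The non-classical heavy chain genes H2-M3 and H2-T22 differed by -3.50 and -2.79, and the classical H2-K1 by -2.57. MHC heavy chain genes resemble each other, so reads may be shared among them. Of 35 interferon-response genes, 16 (45.7%) were lower and 6 (17.1%) were higher by 2-fold, beside 17.0% and 20.8% of all rows. Ifitm3, an antiviral membrane protein, had 11.8, 7.39 and 9.61 FPKM in SMC#1 and 1231, 1199 and 1194 FPKM in Non-SMC#1, whereas Cmpk2 and Rsad2, neighbours on chromosome 12, were higher in SMC#1 at 4.09 and 3.09.

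Proliferation genes held few 2-fold calls, beside 20.8% higher and 17.0% lower of all rows. None of 40 DNA replication genes was lower by 2-fold and 3 were higher, Prim1 (1.35), Pola1 (1.17) and Dnmt1 (1.11). Of 37 mitosis genes, 1 was higher by 2-fold, Tpx2 (1.39), and 1 was lower, Pttg1 (-1.60). The lists' medians were 0.27 and -0.29. At any size, 24 replication genes were called higher and 9 lower, against 10 and 21 of the mitosis genes. Mki67, the proliferation marker, is on the mitosis list but went against most of it. It had 69.6, 80.6 and 62.9 FPKM in SMC#1 and 40.9, 38.6 and 40.0 FPKM in Non-SMC#1. Regulators of G1 differed more. Of 28, 11 (39.3%) were higher by 2-fold and 7 (25%) were lower, beside 20.8% and 17.0% of all rows. Ccnd1, cyclin D1, had 0.413, 0.273 and 0.277 FPKM in SMC#1 and 37.4, 37.9 and 35.3 FPKM in Non-SMC#1, and Cdk6 and the inhibitor gene Cdkn2b differed by -3.12 and -3.97. Cdkn1c and Cdkn1a, inhibitors of cyclin-dependent kinases, were higher in SMC#1, at 52.8 ± 5.98 and 23.2 ± 1.43 FPKM, against 0.116 ± 0.0508 and 3.93 ± 0.674 FPKM in Non-SMC#1. E2f2 was higher at 3.06. Cdkn2a was abundant in both lines, at 144 ± 10.2 FPKM in SMC#1 and 314 ± 7.06 FPKM in Non-SMC#1. Of 25 p53-responsive genes, 8 (32%) were higher and 5 (20%) were lower by 2-fold, beside 20.8% and 17.0% of all rows. Both lines carry the Trp53 deletion by design, and Btg2 at 3.66 and Tnfrsf10b at -4.02 were at the ends of the list.

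Among 28 SWI/SNF chromatin remodelling subunits, a group the study singled out on these cells, 7 were higher by 2-fold or more and 1 was lower. The shares were 25% and 3.57%, beside 20.8% and 17.0% of all rows. The share of subunits higher by 2-fold was thus near that of all rows. At any size, 19 of the 28 were called higher and 6 lower, beside 47.3% and 39.7% of all rows. The list's median was 0.67, beside 0.10 for all rows. The ATPase Smarca4 had 70.7, 66.1 and 72.4 FPKM in SMC#1 and 45.3, 46.4 and 44.3 FPKM in Non-SMC#1 (a log2 difference of 0.61, SE 0.05, limma adjusted p = 3.82e-06). Smarcb1 and Smarca2 were not called. The neuronal subunits Actl6b and Dpf3 averaged 4.91 and 2.75 FPKM in SMC#1 and were listed at 0 in Non-SMC#1, and Bcl7a was higher at 2.86, whereas Smarcd3 was lower at -2.12. Of 39 HOX genes listed, 9 were tested, and 8 of them came from the Hoxb cluster. Hoxb7 had 43.8, 44.7 and 52.3 FPKM in SMC#1 and 13.2, 11.3 and 11.5 FPKM in Non-SMC#1, and Hoxb5 averaged 28.3 ± 2.89 FPKM in SMC#1 and 10.5 ± 0.615 FPKM in Non-SMC#1. Both and Hoxd8 were higher by 2-fold or more, and none of the 9 was lower. The list's median difference was 0.81 in pair 1 and 4.68 over the same genes in pair 2.

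Metabolic lists held few 2-fold calls, apart from glycolysis and lysosomes. Of 25 glycolysis and lactate genes, 16 were lower by 2-fold or more and 1, Eno2, the neuronal enolase, was higher at 1.10. Slc16a3, a lactate exporter, had 2.21, 1.36 and 4.07 FPKM in SMC#1 and 76.0, 79.9 and 77.9 FPKM in Non-SMC#1, and Hk2 and Ldhb differed by -3.79 and -3.11. Glycolytic enzymes have processed copies in the mouse genome, so single values are uncertain. Of 35 lysosome and autophagy genes, 16 (45.7%) were lower by 2-fold or more, beside 17.0% of all rows, and 1, Neu1, was higher at 1.19. Lipa, the lysosomal acid lipase, and the cathepsin genes Ctsc and Ctsb differed by -4.45, -3.19 and -2.67. Of 48 oxidative phosphorylation genes, 1 was lower by 2-fold and none was higher (median -0.03, and 0.24 after quantile normalization). Of 55 cytosolic ribosomal protein genes, 3 were lower and none was higher by 2-fold, although copies of these genes also share reads. Cholesterol synthesis had 2 lower and 1 higher of 23, and serine and one-carbon metabolism 1 of each among 23.

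The most abundant called rows in SMC#1 were 2 histone rows that share the symbol Hist1h2ao, and then Mycl, Cap1 and Gm5088, of which Mycl and Cap1 lie in the block on chromosome 4. Actb, cytoplasmic actin, had 1369, 1285 and 1518 FPKM in SMC#1, against 2880.0, 2965 and 2810.1 FPKM in Non-SMC#1. The most abundant in Non-SMC#1 were Actb, Lgals1, Vim, Fth1 and Rpl8. Fth1, ferritin heavy chain, had 299.7, 299.9 and 348 FPKM in SMC#1 and 2188, 2309 and 2184 FPKM in Non-SMC#1, a log2 difference of -2.82. Further genes with the largest differences in SMC#1 were Nov (now Ccn3), a matricellular protein, at 9.47, Bex2, a small brain-expressed adaptor, at 7.78, Rtn1, a neuroendocrine reticulon, at 7.06, Aldh1a7 at 7.05 and Gdap1l1 at 7.03. Hist3h2ba and Fgf13, an intracellular regulator of sodium channels, were listed at 0 in Non-SMC#1 and averaged 154 ± 28.5 and 139 ± 9.64 FPKM in SMC#1. Col5a2, Sparc and Col12a1 were among the lowest, at -9.45, -8.81 and -8.60.

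Other runs of neighbours were smaller than the one around Mycl. The next on the higher side lay on the X chromosome (median 2.11, bases 50911099 to 57657156, mm9) and held Fgf13, Fhl1 (4.80) and the paralogs Cxx1a and Cxx1b, whose near-identical copies may share reads. A run on chromosome 12 (median 1.85, bases 25257152 to 29552356) was above 0 in all 15 rows and held Id2, Rsad2 and Cmpk2. Over 25 rows, a run on chromosome 2 (bases 152237692 to 154384589) held Id1 and Tpx2. Its median was 1.30, beside a 99th percentile of 1.03. The part of position in these differences was not tested. On the lower side, runs on chromosome 13 (median -1.94, bases 30751928 to 34094663) and chromosome 3 (median -1.90, bases 90195302 to 93368567) stood first, beside a 1st percentile of -1.07. The run on chromosome 13 held the serpin genes Serpinb1a (-5.83), Serpinb6a (-2.35) and Serpinb9 (-3.24) with the forkhead genes Foxf2 (-3.42) and Foxq1 (-2.84). The run on chromosome 3 held the S100 cluster, with S100a6 (-10.15), S100a11 (-8.15), S100a10 (-7.65) and S100a4 (-5.08) lower and S100a14 (2.32) higher.

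To ask what is particular to this pair, its differences were set against those of SMC#2 and Non-SMC#2, lines from the same model that share no library with pair 1. The interaction test called 7957 of 13122 rows (60.6%), and 2805 (21.4%) at a difference of 2-fold or more between the pairs. Of the rows called, 5010 were above 0 and 2947 below, against 4060 and 3791 after median-ratio scaling and 3908 and 4165 after quantile normalization, so the balance of directions rests on the scaling. Large differences mostly had the same direction in both pairs. Of 568 rows higher in pair 1 by 8-fold or more, 516 (90.8%) were called higher in pair 2. Of 531 rows lower by as much, 490 (92.3%) were called lower there. Their size often differed, as the interaction was called for 482 of the 568 rows and 439 of the 531. For comparison, of all 5858 rows higher in pair 1, 3691 (63.0%) were called higher in pair 2, and of all 4919 lower, 3762 (76.5%) were called lower. The interaction was called for 3713 of the 5858 and 2874 of the 4919.

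Krt19 had the largest positive difference between the pairs, and Krt18 and Krt8 were among the next. Non-SMC#2 had 137, 127 and 141 FPKM of Krt8, 319.9, 276 and 308 FPKM of Krt18 and 145, 114 and 140.3 FPKM of Krt19, so the second non-SMC line was high where Non-SMC#1 was low. Krt8 and Krt18 were also high in SMC#2, whereas Krt19 had 0.771, 0.368 and 0.135 FPKM there. The interaction was 11.41 for Krt19 (SE 0.23, limma adjusted p = 4.58e-13), 6.93 for Krt18 (SE 0.15, limma adjusted p = 7.72e-13) and 6.41 for Krt8 (SE 0.16, limma adjusted p = 2.68e-12). For Epcam it was 5.06, as Non-SMC#2 had 53.9, 41.0 and 41.6 FPKM. Wfdc2, a secreted epithelial protease inhibitor, had 35.6, 41.4 and 55.1 FPKM in SMC#1, 20.6, 22.95 and 23.8 FPKM in Non-SMC#1, 1.41, 1.69 and 2.79 FPKM in SMC#2 and 588, 429 and 476 FPKM in Non-SMC#2, and thus was highest in Non-SMC#2. Eya2, a developmental regulator, Mid1, a microtubule-linked ubiquitin ligase, and Dgkk, a diacylglycerol kinase, had interactions of 7.93, 6.51 and 5.95. Mid1 averaged 243 ± 0.216 FPKM in SMC#1, 93.2 ± 3.16 FPKM in Non-SMC#1 and at most 0.439 FPKM in any SMC#2 library, which was the line that stood apart.

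On the negative side were several genes of secreted proteins that were higher in Non-SMC#1 than in Non-SMC#2. Col5a2, a fibrillar collagen chain, had 709, 688 and 696 FPKM in Non-SMC#1 and 1.21, 1.10 and 1.02 FPKM in Non-SMC#2, an interaction of -8.38 (SE 0.08, limma adjusted p = 1.98e-15). Postn, periostin, had 219, 207 and 227 FPKM in Non-SMC#1 and 2.04, 2.27 and 1.89 FPKM in Non-SMC#2, and Prrx1 had 5.23, 5.47 and 4.91 FPKM in Non-SMC#2. Their interactions were -6.17 and -5.26 (SE 0.09 and 0.08, limma adjusted p = 4.58e-14 and 5.69e-14). Sfrp2, Dkk3, Serpinf1, an antiangiogenic serpin, and Serpinb1a followed at -6.74, -6.20, -6.25 and -6.48, with Mme, the protease neprilysin, at -6.03 and Mxra7 at -5.52. Serpinb1a, Mme and Mxra7 were lower in SMC#1 than in Non-SMC#1 but higher in SMC#2 than in Non-SMC#2, with pair 2 differences of 0.65, 0.51 and 1.44 (limma adjusted p = 5.22e-04, 4.70e-04 and 6.80e-07). Slc16a3 and Tshz3, a zinc-finger homeobox factor, changed direction likewise. Slc16a3 had 28.0, 29.0 and 22.6 FPKM in SMC#2 and 0.549, 0.660 and 0.735 FPKM in Non-SMC#2, an interaction of -8.60, and Tshz3 had 9.37, 10.2 and 9.07 FPKM in SMC#2 and 0, 0.00989 and 0.0365 FPKM in Non-SMC#2, an interaction of -6.32. By contrast, Cd44 (0.21, limma adjusted p = 0.0524), Ncam1 (-0.01, adjusted p = 0.949), Notch2 (0.19, adjusted p = 0.507), Smarca4 (0.06, adjusted p = 0.743) and Col1a1 (0.03, adjusted p = 0.943) did not pass that test. Their standard errors lay between 0.09 for Cd44 and 0.32 for Col1a1, where Non-SMC#2 libraries spread from 119 to 298 FPKM, and a missed threshold does not show that the pairs were equal.

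**Figure D4:**
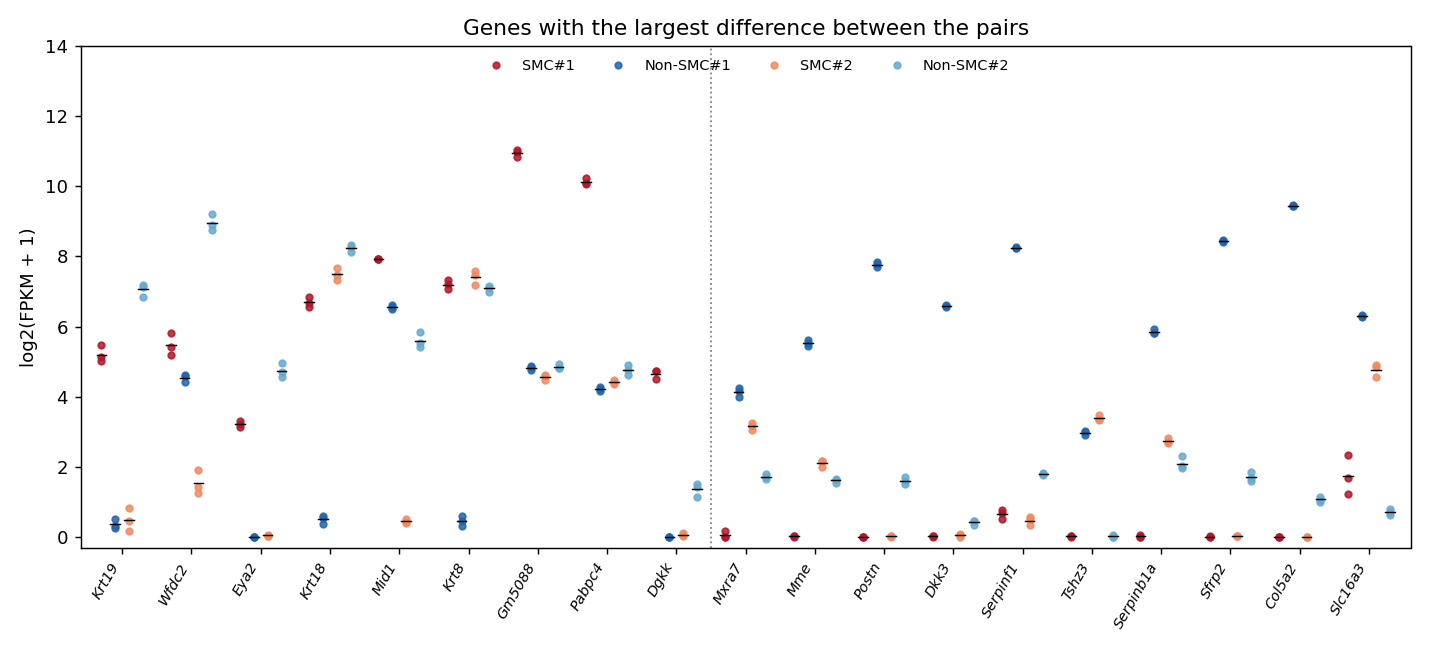
Level of 19 of the genes with the largest differences between the pairs in each library of the 4 lines as log2(FPKM + 1). Points are libraries and short lines are means over 3 libraries, and the dotted line parts genes with a positive difference (pair 1 minus pair 2) from those with a negative one. Krt8, Krt18 and Krt19 are low in Non-SMC#1 and high in Non-SMC#2, while Col5a2, Postn and Sfrp2 are high in Non-SMC#1 and low in Non-SMC#2.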

How the data were processed

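RNA was extracted with TRIzol from cultured lines and sequenced. The deposited table gives FPKM, the authors' estimate per gene row, for 12 libraries, and the tool behind it was not given in the sources used. STAR 2.6.1b and DESeq2 are named in the submitters' processing notes. The notes name mm10, but positions in the table are those of mm9. Counts were not used here, so no count-based test was run, and library depth was estimated from the steps of low values. The table held 0 columns of other samples, and 785 rows share a symbol with another row.

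Rows with at least 1 FPKM in 3 or more of the 6 libraries of the pair were fitted as log2(FPKM + 1) in R 4.3.3 by limma 3.58.1 with its robust and trend options, with Benjamini-Hochberg adjustment over all rows and a threshold of 0.05. The pair difference was an interaction term over all 12 libraries. Groups follow the labels. The data availability text of the paper describes other samples under this series. Alternatives covered the pseudocount, filter, scaling, replicate block, moderation options, single libraries and shared symbols.

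The members, gene lists and tests were chosen with earlier results of these data known. Genes were named by a fixed rule: the 15 largest differences in each direction among called rows with 5 FPKM or more in the higher line, up to 3 members per list and direction, a fixed set with cell type markers, the 10 largest pair differences in each direction, the 5 most abundant called rows per line and neighbours in runs. The others were chosen after their values were seen: Cadps2, Cdh2, Cdkn2a, Dll1, Dll4, Egfr, Erbb2, Foxa1, H2-K1, Hes1, Hes6, Itgb1, Kitl, Krt80, Macf1, Max, Met, Nf2, Notch1, Pkp1, Ppib, Smad1, Smad2, Smad4, Smarca2, Smarcb1, Snai2, Tead1, Tead3, Tead4, Twist1, Vegfa, Zeb1 and Zeb2. The promoters shown were chosen in the same way. Some genes that the rule names are not reported here.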

Additional observations from a re-analysis of the deposited data

Results flagged for a closer look

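The difference between SMC#1 and Non-SMC#1 departed from that between SMC#2 and Non-SMC#2, by the limma interaction term, in 19 of the genes with the largest departures and in 11 further genes of the fixed set with a departure of at least 1 on the log2 scale. All values are the pair 1 difference minus the pair 2 difference. Above 0 were Krt19 (11.41), Wfdc2 (8.33), Eya2 (7.93), Krt18 (6.93), Mid1 (6.51), Krt8 (6.41), Gm5088 (6.41), Pabpc4 (6.24) and Dgkk (5.95). Below 0 were Slc16a3 (-8.60), Col5a2 (-8.38), Sfrp2 (-6.74), Serpinb1a (-6.48), Tshz3 (-6.32), Serpinf1 (-6.25), Dkk3 (-6.20), Postn (-6.17), Mme (-6.03) and Mxra7 (-5.52). In the fixed set, Epcam (5.06), Cdh1 (3.18), Mycn (1.96), Rest (1.13) and Mycl (1.03) were above 0, and Prrx1 (-5.26), Tead2 (-2.64), Pdgfra (-2.21), Nkx2-1 (-1.91), Yap1 (-1.47) and Pdgfrb (-1.35) were below 0. Each pair is 1 line against 1 line, so these values compare 4 lines. Outlying libraries were not tested, since each line has 3.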

How the results depend on the processing

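The counts of rows called higher and lower, the same by 2-fold, and the counts of pair differences above and below 0 stayed within 1.5 times their values under each alternative. The counts within lists, of pair differences of 2-fold or more and of calls shared between pairs were not rerun. Leaving out 1 library at a time gave 5666 to 5934 rows called higher and 4745 to 5040 called lower (2542 to 2643 and 2065 to 2133 by 2-fold), and for the pair difference 4683 to 4921 above 0 and 2710 to 2852 below. With no filter, 7432 rows were higher and 5608 lower. Replicate numbers did not pair the samples, as deviations of equal numbers correlated at -0.10, -0.35 and -0.20. With the replicate block, 5793 rows were higher and 4834 lower. For the genes named, 3788 values were recomputed against Non-SMC#1: none reversed, and 11 lost and 4 gained a call. Those that lost it were Macf1, Rlf and Smad4, and those that gained one were Smad1, Smarca2 and Smarcb1. Among pair differences, 2 reversed: Insm1 was 2.29 with a pseudocount of 0.1 and Rb1 was -0.25 after quantile normalization. With the main settings Insm1 was at -0.01 and not called, and it averaged 0.00421 FPKM in Non-SMC#1 and 0.872 FPKM in Non-SMC#2. Pair differences of genes this near 0 depend on the pseudocount. The cause of the reversals was not tested. Median-ratio scaling moved the median of all rows by -0.09. List medians kept their sign, other than cholesterol synthesis and uptake (-0.08 after median-ratio scaling) and oxidative phosphorylation (0.24 after quantile normalization). With a pseudocount of 0.1 the median was 5.46 for the neuroendocrine transcription factors and -7.58 for collagens and matrix. The highest run of neighbours held Mycl at each width, with a median of 5.24 over 9 rows and 2.58 over 25 rows. The lowest run changed place with the width. It lay on chromosome 6 over 9 rows (median -3.02, bases 3953987 to 5446278, mm9). Over 25 rows it lay elsewhere on that chromosome (median -1.41, bases 72305477 to 83002558). The runs described on the X chromosome and chromosome 13 were not among the 4 highest or 4 lowest at those widths. With 3 libraries of 1 line on each side, the tests speak of these lines only, and an estimate near 0 FPKM does not show that a gene is silent.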

Other observations

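Of 11 complement and coagulation genes tested, 7 (63.6%) were lower in SMC#1 by 2-fold or more and 4 (36.4%) were higher, beside 17.0% and 20.8% of all rows. Thbd, thrombomodulin, and F3, tissue factor, differed by -5.49 and -4.42. The membrane inhibitors Cd55 and Cd59a and the coagulation inhibitor Tfpi were higher in SMC#1, at 2.54, 1.36 and 2.27. All of these are differences on the log2(FPKM + 1) scale.

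Markers of cell types outside the lung tumor were partly measured. Of 8 mesothelial markers, 5 were listed at 0 in all SMC#1 libraries and 2 in all Non-SMC#1 libraries. Their summed level was 31.7 to 43.7 FPKM in SMC#1 and 2.38 to 2.77 FPKM in Non-SMC#1. Nearly all of the sum in SMC#1 came from Krt19 (36.3 FPKM), which is also on the list of keratin-expressing epithelium, while Msln, mesothelin, averaged 0.0407 FPKM in SMC#1 and 1.98 FPKM in Non-SMC#1. Summed levels of 12 markers of muscle, cartilage, bone and fat were 9.39 to 11.9 FPKM in SMC#1 and 104 to 113 FPKM in Non-SMC#1. Of these 12 markers, 3 reached 1 FPKM in SMC#1 (Cebpa, Bglap and Pparg) and 7 in Non-SMC#1. Those 7 were Sox9, Runx2, Fabp4, Sp7, Col2a1, Cebpa and Pparg. In Non-SMC#2, Sox9 and Runx2 averaged 15.1 and 19.0 FPKM, whereas Sp7 and Col2a1 averaged 0.0530 and 0.0419 FPKM.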
